A study of Mus musculus with 16 samples.

Results

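Allele-assigned CTCF peaks were compared between the 2 parental genomes of female hybrid mouse embryonic stem (ES) cells. The lists name the genomes cas and mus, which are read here as Mus castaneus (CAST) and 129. Such lists came from 3 ChIP libraries, 2 from undifferentiated cells and 1 from differentiating cells, out of 16 samples in the series. The chromosomes compared were those where cas made up 25% to 75% of the allele-assigned peaks in each of the 3 libraries. Chromosomes 5, 7, 8, 9, 13 and X met this, which is 6 of the 20 chromosomes listed. They held 6507 of the 32016 allele-assigned peaks of the first day 0 library, 13431 of 56235 in the second and 5556 of 28756 at day 3. Over the libraries this was 25494 of 117007. Just inside the limit was chromosome 5, at 25.8% to 29.4% cas, and the nearest outside were chromosome 2 at 7.78% to 12.7% and chromosome 6 at 11.2% to 12.5%.

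Day 0 cells were grown attached and with LIF, the cytokine that keeps mouse ES cells undifferentiated. Day 3 cells had spent 3 days in suspension without it. The strain label of all 3 ChIP libraries is 129S1/CastEiJ x 129S1, that of CLIP and RNA-seq is CAST/Ei x 129/Sv/Jae, and the labels say nothing of the number of clones or passages. Chromatin was precipitated with an antibody to CTCF. The full lists held 45378, 76746 and 41268 peaks, and read depth is unknown. Input libraries were not analysed here. Transcripts at the positions of Pou5f1 and Nanog, transcription factors of the undifferentiated state, had FPKM (fragments per kilobase of transcript, scaled to library size) of 75.6 and 27.7 at day 0, and 69.4 and 9.23 at day 3, in 1 RNA-seq library per day.

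The zinc fingers of CTCF bind a long DNA motif. The protein stops cohesin as it extrudes chromatin loops, and so places insulators and domain borders. A base difference between parental genomes inside the motif can weaken binding to 1 allele, and methylation can block it, as at the imprinted H19 and Igf2 locus. In female cells 1 X chromosome is silenced during differentiation under the RNA Xist, and CTCF sites mark the Xist region and the long repeat loci Firre and Dxz4. An allele can be called only where reads cover a base that differs between the strains.

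A transcript on the minus strand, the strand of Xist, had its upper end at chrX:100678556 of build mm9 in the day 3 RNA-seq list. The CTCF site chrX:100678340-100681697, merged over the libraries, covered that end. It held a peak in each of the 3 libraries, with scores of 23.4, 20.6 and 19.03, and no library listed it with an allele. The promoter from RefSeq, 250 bases before and 50 after the gene's start on the minus strand, chrX:103483184-103483483 in build GRCm38.p6, is shown because this gene sets the silent X. The site and the promoter are given in different builds and were not aligned, so whether each library's peak covers these bases was not tested.
Xist promoter: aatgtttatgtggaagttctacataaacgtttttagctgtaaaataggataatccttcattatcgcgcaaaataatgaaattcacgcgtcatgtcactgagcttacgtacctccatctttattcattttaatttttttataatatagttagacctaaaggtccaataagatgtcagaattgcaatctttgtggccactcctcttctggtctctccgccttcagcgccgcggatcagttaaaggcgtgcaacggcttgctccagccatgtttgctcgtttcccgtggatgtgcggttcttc
The letters CCCTC and, for the other strand, GAGGG, were searched and would be in capitals. They had 0 matches in this window, whereas 66.0% of the 32851 RefSeq mouse promoters of this length had at least 1. The long CTCF motif itself was not searched, so the lack of a match does not say whether this window holds it.

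Chromosomes 13 and X were mixtures of both alleles along their length, and the other 4 were not. In 10 Mb windows of the 3 libraries together, X was near even from end to end. So was chromosome 13 up to its last window, which had 9 peaks. At day 3 alone, X window 1 was 83.3% cas (18 peaks) and X window 4 was 23.5% (17 peaks). X window 4 leaned to mus in each library, with 35.3% and 28% cas at day 0 and 28.8% of 59 peaks together. Chromosomes 5, 7 and 9 had near-even middles with ends where almost every allele-assigned peak was mus. Windows from 0 to 40 Mb and from 150 Mb on chromosome 5, from 0 to 10 Mb and from 140 Mb on chromosome 7, and from 0 to 20 Mb and from 120 Mb on chromosome 9 were of the mus kind. Chromosome 8 passed the rule as a sum of a cas stretch, from 0 to 80 Mb, and a mus stretch, from 90 Mb on, with 1 near-even window between them. Of 89 windows, 64 were near even, 16 mus, 8 cas and 1 had too few peaks (under 20). A window was called interior when it was near even and had no mus or cas window beside it. The 57 interior windows lay on chromosomes 5 (9), 7 (11), 9 (8), 13 (12) and X (17), and none was on chromosome 8. They held 2501, 6644 and 1989 allele-assigned peaks.

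**Figure D1:**
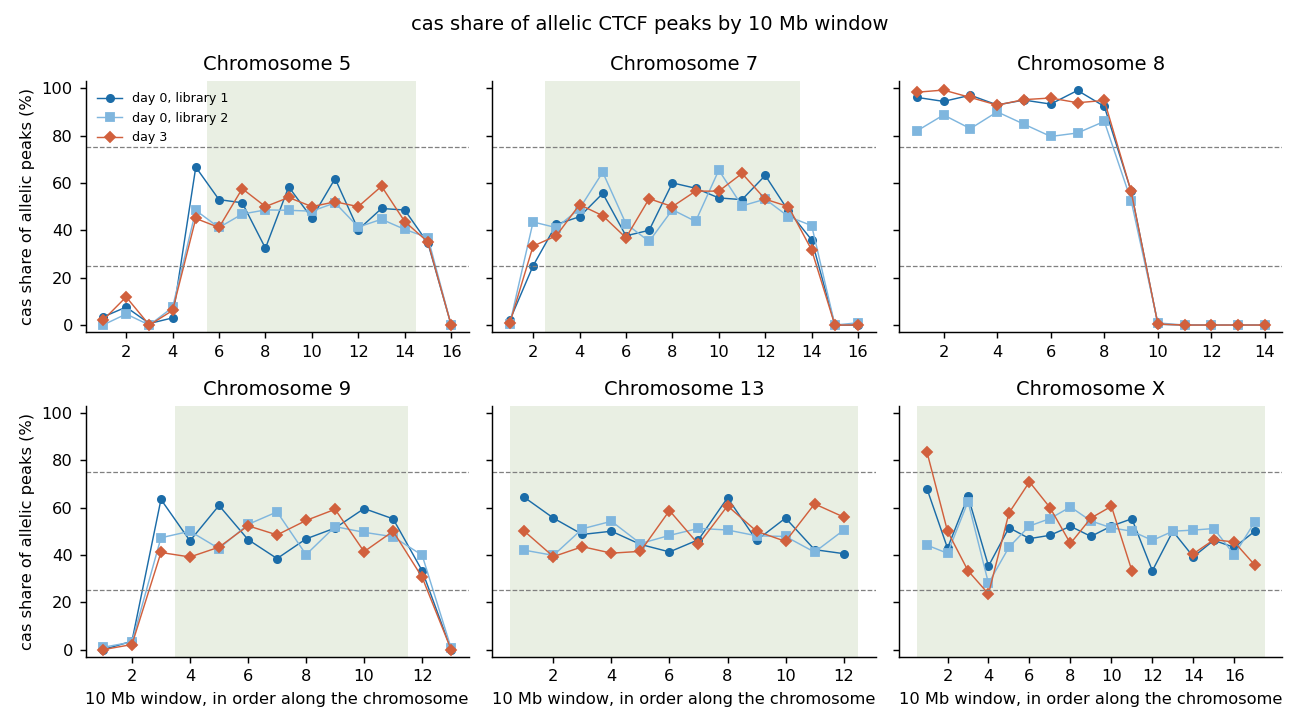
Share of allele-assigned CTCF peaks listed as cas (y axis, percent) in each 10 Mb window in order along the 6 chromosomes (x axis), for 3 ChIP libraries; shading marks the 57 interior near-even windows, dashed lines 25% and 75%, and points with fewer than 5 peaks are left out. Chromosome 8 drops from mostly cas to mus after window 8. Chromosomes 13 and X stay between 25% and 75% except in X windows 1 and 4 at day 3. X window 4 leans to mus in all 3 libraries.

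The mus and the cas stretches differed in more than their allele. In mus stretches 87.3%, 87.1% and 90.2% of all peaks carried an allele in the 3 libraries. In the cas stretch of chromosome 8 the shares were 51.9%, 59.0% and 54.7%, and in interior windows 29.2%, 44.3% and 24.9%. The allelic lists carry an unnamed value per peak, whole numbers from 1 or else 10000, and an unnamed count of 3 or more. Of 28604 peaks with a value under 10000, all 28604 had a value no higher than −log10 of 0.5 raised to the count, rounded up. A binomial test of a 50:50 split has this limit, reached when every read is of 1 allele, so the value is read here as −log10 of such a probability, the count as reads that tell the alleles apart, and 10000 as no read of the other allele. The files do not state this reading. Of the peaks under 10000, 6797 were at the limit itself, so a value under 10000 need not mean reads of the other allele. The value was 10000 at 81.8%, 94.2% and 81.1% of peaks in mus stretches, at 9.12%, 23.5% and 5.93% in the cas stretch, and at 13.7%, 24.6% and 10.7% in interior windows. The value 10000 was thus far more frequent in mus stretches than in the cas stretch. How many peaks of each stretch held reads of the other allele cannot be read from this value.

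Interior windows had 49.2% cas in the first day 0 library (exact 95% interval 47.2% to 51.2%), 47.55% in the second (46.3% to 48.8%) and 49.6% at day 3 (47.4% to 51.8%). The interval of the second library lies below an even split. Interior windows were chosen for a near-even cas share in these same lists, so these shares describe the chosen windows and do not test for a bias. On X the shares were 49.0% of 498 peaks (44.5% to 53.5%), 49.3% of 1165 (46.4% to 52.2%) and 49.2% of 333 (43.8% to 54.8%). Each interval on X holds an even split. X was itself kept for its cas share in these same lists, so a large excess of 1 parental X would have left it out. The shares on X are thus a description, and an excess of 1 parental X at day 0 or day 3 was not tested. Intervals cover counting error only and take peaks, not libraries, as the unit. On X fewer peaks carried an allele than in interior autosomal windows, 27.7% against 29.6%, 39.3% against 45.6% and 22.8% against 25.3%. Peaks of X at the value 10000 were more frequent, 21.7% against 11.7%, 35.7% against 22.3% and 18.6% against 9.06%. The median count was lower on X, 9 against 13, 9 against 14 and 9 against 12, and its part in the share at 10000 was not tested. These differences had 1 direction in all 3 libraries and were not tested, and they are between chromosomes of the same libraries.

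Peak scores, the authors' own value per peak, are those of the full lists. Score and width thus describe the whole peak and do not measure binding to 1 allele. Scores were nearly the same at peaks listed as cas and at peaks listed as mus. Across the 6 chromosomes the median score was 26.1 for 2471 cas peaks and 28.2 for 4036 mus peaks in the first day 0 library. It was 17.02 for 5071 cas and 17.5 for 8360 mus peaks in the second, and 30.3 for 1980 cas and 30.2 for 3576 mus peaks at day 3. The mean difference, cas minus mus, was -0.82 ± 1.21 (SD, n = 3 libraries), with p = 0.5 in a two-sided exact sign-flip permutation test. The smallest p that 3 libraries allow is 0.25. In the first day 0 library 956 of the cas peaks lay in the cas stretch and 2390 of the mus peaks in mus stretches. Comparisons of score, width and starts over the 6 chromosomes thus mix allele with region. In interior windows the medians were 26.96 and 26.99, 16.6 and 17.6, and 28.4 and 27.6, cas before mus, and the sign differed between libraries. The mean difference there was -0.058 ± 0.934 (SD, n = 3; p = 0.75, same exact test).

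The median width was lower for cas in each library, 1958 against 1976 bp, 2016 against 2029 bp and 2005.5 against 2012 bp. The mean difference was -12.5 ± 5.77 bp (SD, n = 3; p = 0.25, exact sign-flip permutation test, two-sided). Within interior windows cas was again lower in all 3, by 2, 21 and 8 bp. These differences are small beside the quartiles of width, 1602 and 2049 bp for cas in the first library.

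Few peaks of either allele lay at transcript starts of the same day's RNA-seq list. Within 1 kb of a start were 5.87% of cas and 7.21% of mus peaks in the first day 0 library, 6.92% and 7.24% in the second, and 5.86% and 6.10% at day 3. The difference was -0.632 ± 0.616 percentage points (SD, n = 3; p = 0.25, exact sign-flip permutation test, two-sided). It was 0.0471, -0.342 and -0.216 points in interior windows, where the first library had the other sign. The median distance to a start in those windows was 21428 bp for cas and 19685.5 bp for mus in the first library, 19889 and 19133 bp in the second, and 24687 and 25555 bp at day 3.

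On X the cas peaks had the higher median score in all 3 libraries, 24.7 against 23.4, 16.2 against 16.05 and 27.1 against 24.4. The mean difference was 1.41 ± 1.29 (SD, n = 3; p = 0.25, exact sign-flip permutation test, two-sided), and on interior autosomal windows it was -0.26 ± 0.81 (p = 0.75, same exact test). No test was made of X against the autosomes.

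**Figure D2:**
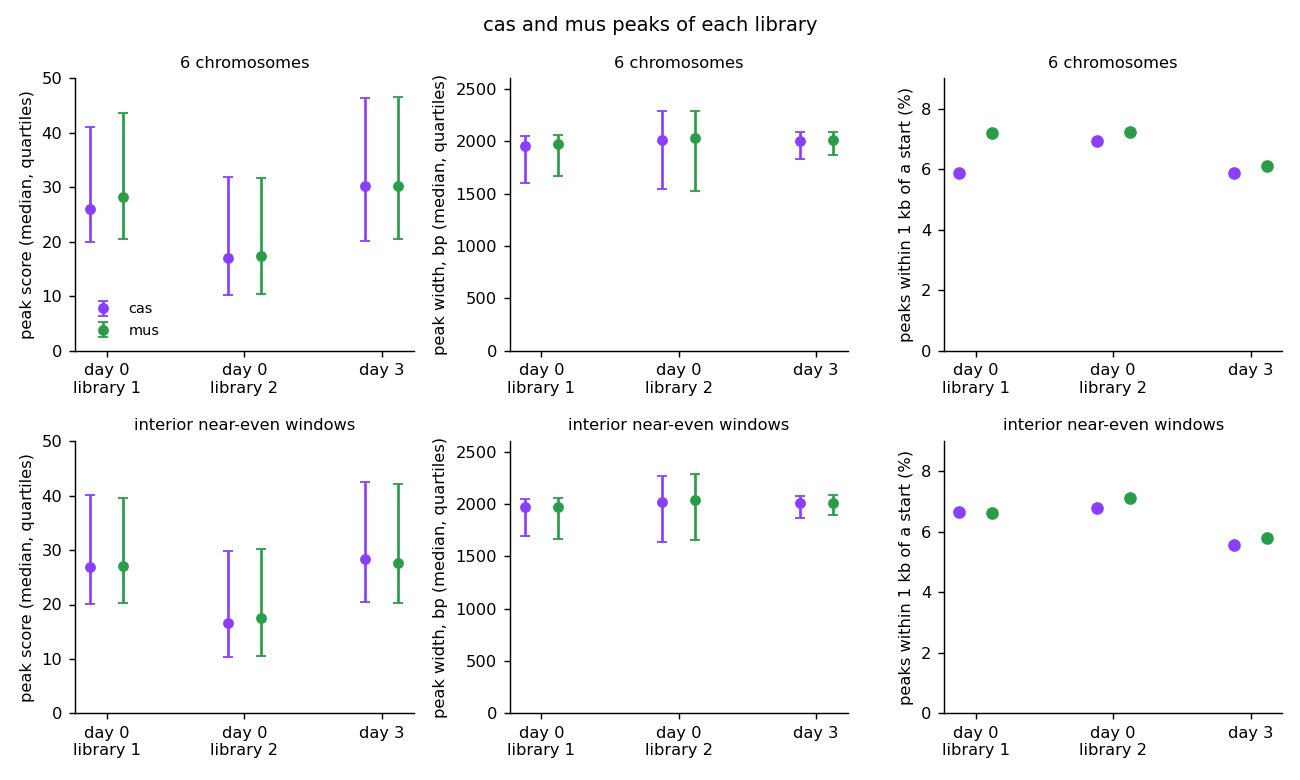
Median peak score and width with quartile bars, and the percent of peaks within 1 kb of a transcript start (y axes), for cas (purple) and mus (green) peaks of each library (x axis), over the 6 chromosomes (top) and the interior near-even windows (bottom). Peaks listed as cas and as mus lie close together in each library, with scores lowest in the second day 0 library.

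A peak listed with an allele in 1 library was seldom listed with the same allele in another. Of 2501 interior peaks with an allele in the first day 0 library, 1882 (75.2%) had a peak in the second day 0 library and 901 of those carried an allele there (47.9%). The allele was the same for 522, 20.9% of the 2501. In the day 3 library 262 of the 2501 had the same allele (10.5%). From the day 3 library, 1739 of 1989 peaks (87.4%) were peaks of the second day 0 library, 854 carried an allele there and 540 (27.1%) carried the same one.

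Where overlapping peaks both carried an allele, the allele was the same in 57.7% of 906 pairs between the day 0 libraries (54.4% to 61.0%). It was the same in 62.2% of 421 pairs between the first day 0 library and day 3 (57.4% to 66.9%), and in 63.1% of 858 pairs between the second and day 3 (59.7% to 66.3%). The product of the cas and mus shares gives 50.1% over all pairs. The 2 day 0 libraries thus did not match each other more often than they matched day 3. Over all pairs the share was 60.7% of 2185, with 59.1% of 350 on X and 61.0% of 1835 on interior autosomal windows. It was 62.3% on chromosome 5, 291 of 485 pairs on 7, 60.5% on 9 and 60.9% on 13. Over the whole 6 chromosomes it was 88.7% of 9429 pairs, a value that holds the stretches of 1 allele.

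The match rose with the support of the allele calls. Support is the listed value, or, for a value of 10000, the count times log10 of 2, rounded. Of 868 interior pairs whose lower support was 1, 55.4% had the same allele (52.0% to 58.8%), and of 1123 pairs with 2, 61.2% (58.3% to 64.0%). It was 77.3% of 132 pairs with 3 (69.2% to 84.1%), 82.4% of 34 pairs with 4 (65.5% to 93.2%) and 28 of 28 pairs with 5 or more (87.7% to 100%). With a support of at least 3 in both peaks, 158 of 194 pairs had the same allele (81.4%), against 58.7% of 1991 pairs below that. The count alone gave the same order, from 54.7% of 351 pairs with a lower count of 3 to 5 to 68.8% of 186 pairs with 26 or more. A value of 10000 in both peaks was no sign of a match, since 43 of 80 such pairs had the same allele (53.8%). On X 14 of 22 pairs with a support of at least 3 had the same allele (63.6%, 40.7% to 82.8%), and on interior autosomal windows 144 of 172 (83.7%, 77.3% to 88.9%). The classes were chosen after values were seen, and pairs share peaks across libraries.

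**Figure D3:**
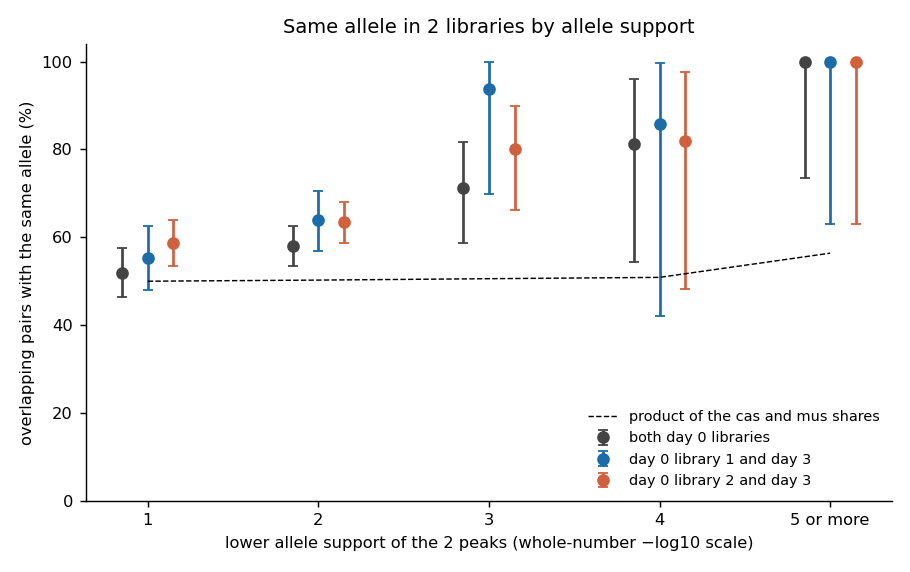
Percent of overlapping peak pairs with the same allele (y axis) by the lower allele support of the pair (x axis), for 3 library pairs in interior near-even windows, with exact 95% intervals; the dashed line is the product of the cas and mus shares of the pairs at each support. The share rises from 55.4% of all pairs at a support of 1 to 28 of 28 pairs at 5 or more.

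Sites with an allele in all 3 libraries were rare. Interior windows held 9156 sites, that is peaks merged where they overlapped, of which 7410 carried an allele in 1 library, 1532 in 2 and 214 in 3. Of these 214, 102 had the same allele each time (47.7%, exact 95% interval 40.8% to 54.6%). The product of the cas and mus shares gives 25.2%. There were 47 cas sites (22%) and 55 mus sites (25.7%). On X 16 of 34 sites had the same allele (47.1%), 8 cas and 8 mus, and on interior autosomal windows 86 of 180 (47.8%), 39 cas (21.7%) and 47 mus (26.1%). Chromosome 7 had 8 cas and 21 mus sites of 52, and chromosome 13 had 11 cas and 5 mus sites of 35. Chromosome 5 had 12 cas and 14 mus sites of 56, and chromosome 9 had 8 and 7 of 37. Differences between chromosomes were not tested. Over the whole 6 chromosomes the same allele was listed at 1948 of 2091 sites (93.2%), 322 cas (15.4%) and 1626 mus (77.8%). On the 14 chromosomes left out it was listed at 14742 of 14795 sites (99.6%), 14645 mus and 97 cas (0.656%). Over all 20 chromosomes it was 16690 of 16886 (98.8%), 419 cas (2.48%) and 16271 mus (96.4%).

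The library that differed was spread evenly. Among the 112 interior sites with no common allele, the first day 0 library was alone with its allele at 37, the second at 36 and the day 3 library at 37, and 2 sites had both alleles within a library. At 140 sites where the day 0 libraries had the same allele, day 3 had it too at 102 (72.9%, 64.7% to 80.0%). For the first day 0 library given the other two it was 102 of 139 (73.4%), and for the second 102 of 138 (73.9%).

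Sites with 1 common allele had better supported calls and were not the higher peaks. Their lowest count over the libraries had a median of 14, against 10 at sites with no common allele. The median of their mean score percentile was 64.3 against 68.2. Within 5 kb of a day 0 transcript start were 23 of 102 and 32 of 112, and among the sites with a common allele 8 of 47 cas and 15 of 55 mus. Support was at least 3 in every library at 13 sites, and 10 of these had a common allele, 6 cas and 4 mus. None of the 10 was on X.

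**Figure D4:**
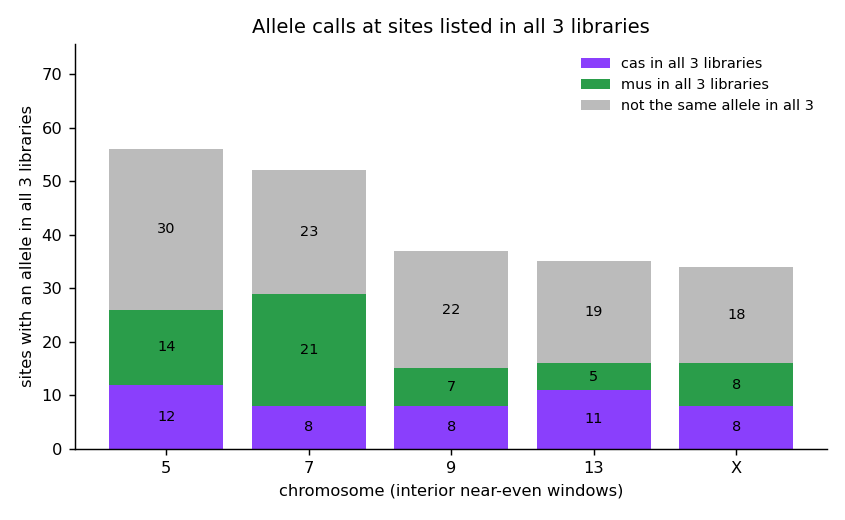
Number of sites with an allele in all 3 libraries (y axis) by chromosome (x axis) in interior near-even windows, divided into cas in all 3, mus in all 3 and no common allele. Chromosome 7 has 21 mus against 8 cas sites, and chromosome 13 has 11 cas against 5 mus sites. Chromosomes 5, 9 and X have 12 cas and 14 mus, 8 and 7, and 8 and 8 sites.

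These 10 sites were chosen for a common allele and for support, after their values were seen, so their values are a description. At chr13:109999733-110002022 the peak was cas with values of 5, 6 and 5 on counts of 32, 55 and 33, and scores of 69.0, 53.3 and 49.0. At chr5:127732638-127734962 cas had values of 10, 3 and 6 on counts of 37, 29 and 23. At chr13:55641454-55643564 cas had values of 5, 6 and 4 on counts of 19, 24 and 18. The mean score percentiles of these sites were 90.6, 84.9 and 51.7, so the peaks ran from high to middling. The other cas sites were chr5:66716613-66719063, chr7:99556103-99558266 and chr5:129659317-129661360. The first of these had a mean score percentile of 99.0, the highest of all interior sites with a common allele.

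On the mus side chr5:113698061-113700305 had values of 6, 7 and 5 on counts of 24, 51 and 32, with scores of 34.5, 31.9 and 34.4. At chr7:29128765-29131645 mus had values of 4, 8 and 6 on counts of 29, 52 and 30. The others were chr7:87275274-87278724, with values of 3, 4 and 4 on counts of 43, 59 and 32, and chr9:75969922-75972109. The highest interior mus sites by score, chr7:38983524-38987397 and chr7:25225759-25228174, had mean percentiles of 97.5 and 96.1 and lower support. The deposited lists do not pair these positions with gene names.

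Chromosome 8 held 268 of the 322 cas and 783 of the 1626 mus sites with a common allele on the 6 chromosomes. Ranked by score alone, the 10 highest cas sites were all on chromosome 8, 9 of them inside its cas stretch. The first was chr8:73176105-73178474 with scores of 152, 118 and 130. The cas site outside the stretch, chr8:87260117-87262833, lay in the window where chromosome 8 changes over. Of the 10 highest mus sites, 8 were on chromosome 8, led by chr8:111434423-111436855 with scores of 174.9, 103.3 and 136.0, and 1 each was on chromosomes 5 and 7, in their mus ends. Of those 8, chr8:87599003-87602301, alone lay in the change-over window. In the cas stretch 231 of 242 sites with an allele in all 3 libraries were cas, and in the mus stretches 1471 of 1474 were mus, so the allele of the others is that of their stretch.

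Neighbouring peaks of a library were also compared. Over the 6 chromosomes 73.1% of 25476 neighbouring allele-assigned peaks of a library had the same allele, against 53.2% from the shares. In interior windows it was 51.2% of 11119 neighbours (50.3% to 52.2%), against 50.1%. Neighbours under 10 kb apart had the same allele at 50.4% of 1850, and those 10 to 100 kb apart at 51.9% of 5517. On X neighbours under 10 kb apart shared the allele at 122 of 273 (44.7%, 38.7% to 50.8%).

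Among 26 known loci on the 6 chromosomes, 6 in interior windows had a site with an allele in all 3 libraries within 100 kb. At 3 of the 6, Firre, Hprt and the first Hist1 group, the allele was common and cas, and at Dxz4, Eif2s3x and Ptch1 it was not. This share is close to the 47.7% of all interior sites. At Firre, a long noncoding RNA gene with many CTCF sites in its repeats, the site chrX:47932376-47934807 lay inside the gene. It was cas in all 3 libraries, with values of 4, 4 and 2 on counts of 32, 52 and 29, and scores of 62.3, 31.3 and 43.7. Its score was the highest of the 15 Firre sites in the first day 0 library, but other sites reached 43.2 and 31.5 in the second and 70.7 at day 3. Of these 15, 7 were peaks in all 3 libraries. Besides the cas site, 1 of the 7 was cas in the second day 0 library and mus at day 3, 3 carried an allele in 1 library and 2 in none. A site at chrX:47924639-47927129 was mus in the second day 0 library and at day 3 and was no peak in the first. Both alleles were therefore listed within the gene.

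Near Hprt, which encodes a purine salvage enzyme, chrX:50281020-50284721 was cas in all 3 libraries, with values of 1, 3 and 2 on counts of 12, 17 and 7. Inside the gene chrX:50353121-50355464 was mus in the first day 0 library and cas at day 3, and chrX:50357096-50360624 was cas in both of these libraries and carried no allele in the second. In the first group of Hist1 histone genes on chromosome 13, chr13:21800686-21803878 was cas in all 3 libraries, each with a value of 2 on counts of 7, 26 and 13. Of the 25 peak sites of that group 17 were found in 1 library.

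At Dxz4, a tandem repeat that forms a border on the inactive X, 5 of 10 sites inside the locus were peaks in all 3 libraries. Of these 3 had no allele in any library, and chrX:72998488-73001199 was cas in the first day 0 library and mus in the second. The 1 site within 100 kb with an allele in all 3, chrX:73059437-73061612, was cas in the first day 0 library and at day 3, on counts of 8 and 5, and mus in the second on a count of 30. Of the genes that escape X silencing, Eif2s3x had 1 site with an allele in all 3 libraries within 100 kb, and Kdm5c and Kdm6a had none. Atrx, Huwe1 and Pgk1 had none either. On X as a whole 34 of 1678 sites (2.03%) had an allele in all 3, so few could have been found there.

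**Figure D5:**
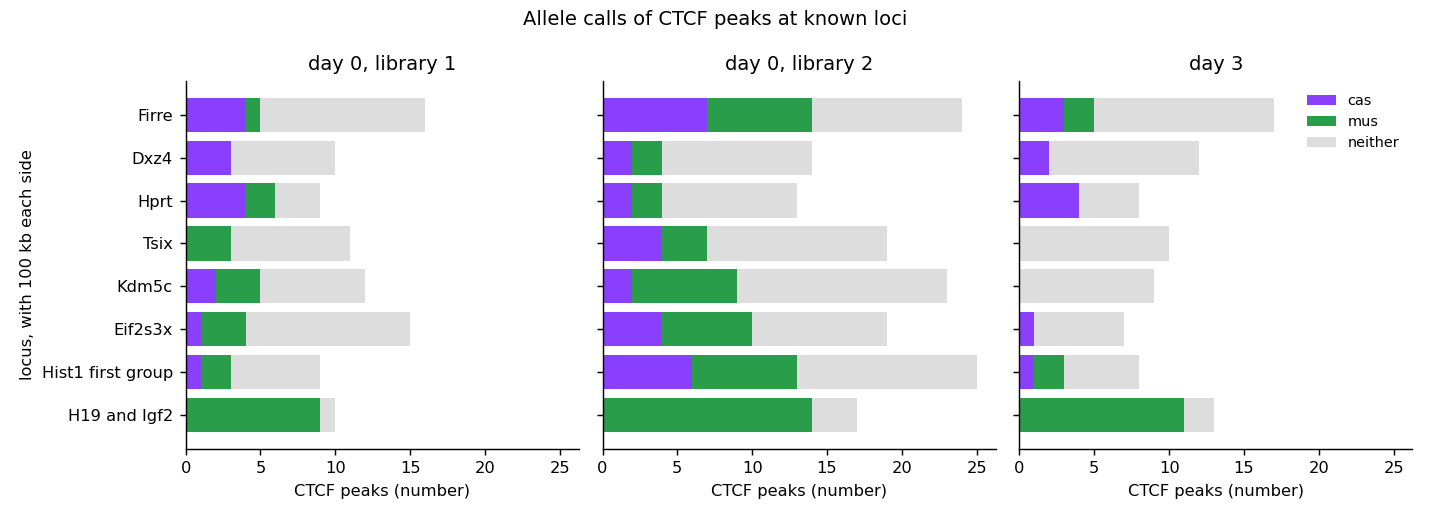
Number of CTCF peaks (x axis) listed as cas, as mus or with neither allele at 8 known loci with 100 kb each side (y axis), for each library. Firre has 16, 24 and 17 peaks with 5, 14 and 5 of them carrying an allele, and the peaks with an allele at H19 and Igf2 are all mus.

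In the X-inactivation centre, from Cdx4 to Rlim, 5 of 18, 15 of 35 and 2 of 16 peaks carried an allele in the 3 libraries. They fell on 21 sites, 20 with an allele in 1 library, 1 in 2 libraries and none in 3. Over all of X, 1399 of 1678 sites (83.4%) had an allele in 1 library and 34 in 3 (2.03%), and the counts of the centre are too few to be read against these shares. The repeated site, chrX:100578820-100581055 within the Chic1 transcript, was mus in both day 0 libraries, with values of 3 and 2 on counts of 10 and 9. Within Tsix, the antisense repressor of Xist, 8 peak sites were found, 6 of them in all 3 libraries. The second day 0 library listed chrX:100635370-100637496 and chrX:100652236-100656618 as cas and chrX:100648368-100650565 as mus, and the first listed chrX:100672107-100673933 as mus. Day 3 listed no allele there. Upstream of Tsix, the second day 0 library listed chrX:100597113-100597970 as cas and chrX:100605047-100607006 as mus, and the first listed chrX:100602870-100604747 as mus. Beyond Xist, the second listed 6 cas and 3 mus peaks, with values of 10000 at 4 of them, and the first listed chrX:101105803-101107323 as mus and chrX:101171223-101173555, within Rlim, as cas. Day 3 had chrX:101113589-101115411 as mus, with the value 10000 on a count of 3, and chrX:101131849-101133899 as cas, with a value of 1 on a count of 16 and a score of 73.0. The transcript at Xist had an FPKM of 10.7 at day 3, and no row on its strand was listed at day 0.

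At the imprinted loci of chromosome 7, H19 and Igf2 had 6 sites with an allele in all 3 libraries, Kcnq1ot1 4 and Peg3 3, and all 13 were mus. They lie in mus stretches, and their allele cannot be told apart from that of the stretch. Within the H19 and Igf2 locus the peak of the second day 0 library at chr7:149764512-149768922 had a count of 72. The peaks that overlap it had counts of 38 in the first library and 42 at day 3, and the value was 10000 each time. Snrpn and Rasgrf1 lie in near-even windows. Snrpn had 1, 5 and 1 peaks within 100 kb with an allele at 2 in the second day 0 library alone. Rasgrf1 had 6, 18 and 11 peaks, and 2 of its sites carried an allele in both day 0 libraries. The site chr9:89970754-89973181 was cas in the second and mus in the first, and chr9:89992676-89997107 was mus in both, with values of 5 and 2 on counts of 35 and 15 in the second and the first.

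The X chromosome held 8 cas and 8 mus sites with a common allele. Besides those at Firre and Hprt, the cas sites included chrX:65565730-65568034, the highest by score with 72.8, 61.2 and 59.6. Its allele values were 2, 5 and 1 on counts of 5, 15 and 6. Another cas site was chrX:59795856-59798835, with values of 5, 2 and 5 on counts of 23, 15 and 21. The mus sites included chrX:20910855-20913032, with values of 3, 8 and 2 on counts of 24, 55 and 11, and chrX:160825317-160829498, with values of 4, 2 and 2 on counts of 20, 41 and 14. At chrX:9610991-9612973 all 3 libraries listed cas with the value 10000, on counts of 5, 4 and 7. Counts under 10 at such sites leave the split of alleles poorly measured.

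Alleles of CTCF CLIP, which maps RNA bound by the protein, matched the ChIP allele about as often as the shares give. Of 1967 overlaps between allele-assigned ChIP and CLIP peaks on the 6 chromosomes, 1000 had the same allele (50.8%, 48.6% to 53.1%), and the shares give 50.2%. In interior windows it was 745 of 1476 (50.5%). On X it was 347 of 669 (51.9%) and on chromosome 13 it was 290 of 623 (46.5%). On chromosomes 5, 7, 8 and 9 only the first day 0 CLIP library listed alleles. These overlaps pool libraries, and the strain labels of ChIP and CLIP differ. ChIP calls themselves matched in 60.7% of interior pairs between libraries, so a link between the assays could be missed.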

How the data were processed

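CTCF ChIP was measured in 2 day 0 libraries and 1 day 3 library, and nothing in the labels says that they came from separate cultures, so p-values measure the spread between these libraries. The submitters' processing notes name Trim Galore 0.3.3, cutadapt 1.0, Novoalign 3.00.03, TopHat2 2.0.8, SAMtools 0.1.18, bedtools 2.17.0, Cufflinks 2.1.1 and build mm9. No source used here names the peak caller. The authors deposited peak lists with a score per peak, and allelic lists with further unnamed columns whose meaning was inferred from the values. Transcript starts came from the FPKM lists the authors deposited. Reads that map better to the reference genome can favour 1 allele, which was not tested.

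Peaks overlapping by at least 1 bp were matched with Python 3.11.15, pandas 2.3.3 and SciPy 1.17.1, on code tested on simulated data. Intervals are exact Clopper-Pearson 95% intervals and cover counting error only. Differences between cas and mus peaks were tested over libraries by exact sign-flip permutation. Sites were named by rule: the 10 of each allele with the highest mean score percentile among those with 1 common allele on the 6 chromosomes, those within 100 kb of a known locus, and allele-assigned peaks between Cdx4 and Rlim. The same ranking in interior windows, and the sites on X, were added after values were seen. The members, lists and loci were chosen with earlier results of these data known. The 10 Mb windows, their classes (25% to 75% cas, at least 20 peaks) and the split at a support of 3 were added after seeing the data. Positions of known loci are background knowledge. Alternatives were other chromosome sets, the higher-scoring peaks, other matching rules and leaving out each library.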

Additional observations from a re-analysis of the deposited data

Results flagged for a closer look

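The difference in median score between cas and mus peaks over the 6 chromosomes had another sign at day 3 than at day 0. It was -2.17 and -0.46 in the day 0 libraries and 0.16 in the day 3 library. The difference between days was not tested, since day 3 has 1 ChIP library.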

How the results depend on the processing

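The score difference of -0.82 became 0.43 with chromosomes of 40% to 60% cas and 1.41 on X alone, and ran from -1.31 to -0.15 with a library left out. The width difference of -12.5 bp became 2.67 bp on X alone and ran from -15.5 to -9.75 bp with a library left out. The difference in peaks at starts, -0.632 points, became 0.645 on X alone and ran from -0.83 to -0.28 with a library left out. The cause of these reversals was not tested. The same allele between libraries, 88.7%, was 90.0% for the higher-scoring peaks, 59.1% on X, 89.9% without X and 60.7% in interior windows, and 86.0% to 92.5% with a library left out. The same allele in all 3, 93.2%, was 47.1% on X and 47.7% in interior windows, and 85.8% to 92.2% in 2 libraries. Neighbours, 73.1%, were 70.2% at 10 kb or more and 51.2% in interior windows. In interior windows the share of sites with 1 common allele, 47.7%, was 76.9% at a support of at least 3, 41.4% for the higher-scoring peaks, and 57.6% to 62.8% in 2 libraries. No paired analysis was possible because day 3 has 1 ChIP library, so day 0 and day 3 libraries could not be paired by number; cas and mus were compared within each library. Read depth is unknown, and the second day 0 library listed the most peaks.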
